A study of Caenorhabditis elegans with 4 samples.

Results

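The *dpy* (dumpy) genes described here are 10 cuticle collagen genes of *C. elegans*, named for the short, stout body of their mutants. They were chosen by gene symbol from the 20380 genes of the count table, and all 10 passed the filter on low counts that left 16178 genes for testing. Among them, *dpy-2*, *dpy-3*, *dpy-7*, *dpy-8*, *dpy-9* and *dpy-10* are the 6 furrow collagens, and *dpy-4*, *dpy-5*, *dpy-13* and *dpy-17* are the other 4. Wild-type N2 animals were fed at 20°C from L1 to L4 with bacteria producing *xrn-2* double-stranded RNA or, for the mock, with bacteria holding the empty L4440 vector. *xrn-2* encodes a nuclear 5'→3' exoribonuclease. Whole animals were harvested, and poly(A) RNA was sequenced from 2 libraries per condition, called replicates 1 and 2. The labels do not say whether the replicates are separate cultures, so that the p-values measure the spread between these libraries only. According to the methods, the animals on *xrn-2* RNAi food grow more slowly and were kept on it for longer, mid-L4 was checked by vulval morphology, and the replicates were matched to different times of L4 development, the libraries of replicate 2 less well to each other than those of replicate 1.

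The cuticle is an extracellular matrix that the epidermis secretes anew before each molt. Its collagens are short Gly-X-Y proteins that are hydroxylated, trimerized, cleaved and crosslinked. The furrow collagens lie in the circumferential furrows that divide the cuticle into annuli, and loss of any of them removes the furrows and makes the animal dumpy. Cuticle collagen mRNAs rise and fall once in every larval stage, and the furrow collagen genes peak earlier in this cycle than many other collagen genes.

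The 4 libraries held 41105706 to 48451504 counted reads, and the median gene had 182 to 319. The mRNA of the targeted gene was higher in the RNAi library of replicate 1 and about equal in the libraries of replicate 2, so that it gives no check of the labels. Scaled to the mean library total, as all scaled counts below, *xrn-2* had 4247 in the mock and 5265 in the RNAi library of replicate 1, against 6192 and 6032 in replicate 2. The conditions are therefore named by the labels. Mock replicate 2 stood apart in genes of the adult stage. The summed scaled count of the adult cuticle collagen *col-19* and the yolk proteins *vit-2*, *vit-5* and *vit-6* was 1491 in mock replicate 1, 48253 in *xrn-2(RNAi)* replicate 1, 2137147 in mock replicate 2 and 392375 in *xrn-2(RNAi)* replicate 2, while *col-7* had no read in any library. *col-19* alone had scaled counts of 34.04 and 1507 in replicate 1 against 93662 and 9716 in replicate 2, and *vit-5* had 0 and 440 against 64005 and 5015. The results below are accordingly given for each library, and with each library left out.

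The furrow collagens were abundant in both libraries of replicate 1, low in *xrn-2(RNAi)* of replicate 2 and lowest in mock replicate 2. *dpy-7*, whose product is a widely used marker of the furrows, had a scaled count of 8952 in mock replicate 1, 5082 in *xrn-2(RNAi)* replicate 1, 24.98 in mock replicate 2 and 573 in *xrn-2(RNAi)* replicate 2. In the same order of libraries, *dpy-8* had 10371, 9402, 83.3 and 1174. *dpy-3* had 4271, 3750, 16.7 and 465. Thus both replicate 2 libraries lay below both replicate 1 libraries, and the values of the conditions overlapped. In whole animals, fewer cells making these mRNAs and less mRNA per cell cannot be told apart.

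The genes *dpy-2* and *dpy-10* lie head to head in the WBcel235 annotation, where 1 annotated coding gene that has no row in the table lies next to both. In the order just given, *dpy-2* had scaled counts of 8247, 5804, 84.3 and 776, and *dpy-10* had 8174, 5462, 91.6 and 734. *dpy-9* had 6861, 4677, 109 and 671, the smallest contrast between the mock libraries among the furrow collagens. In mock replicate 2 the counts behind these values were 16 reads for *dpy-3* (exact 95% Poisson interval 9.15 to 25.98), 24 for *dpy-7* (15.4 to 35.7) and 80 to 105 for the other 4. These intervals cover counting error only. Their lower limit is above 0 for any gene with a read, so that they are no test of expression.

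**Figure D1:**
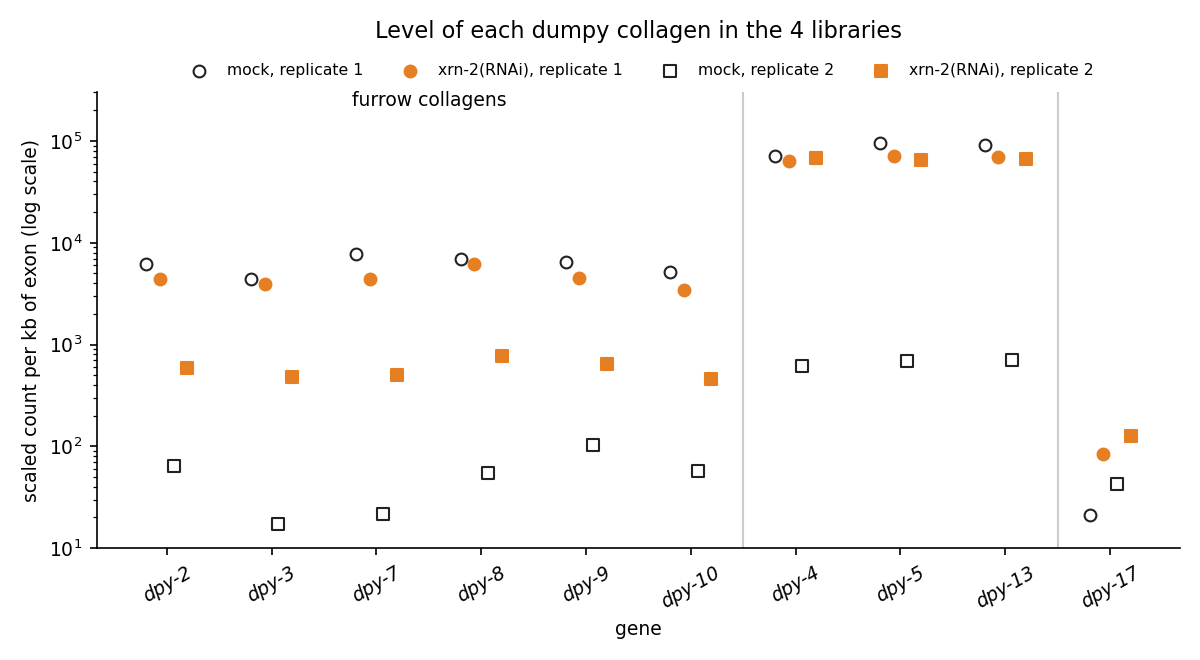
Scaled count per kilobase of annotated exon (log scale) of each of the 10 dumpy collagens in the 4 libraries, 1 point per library. The furrow collagens fall into 3 tiers by library, *dpy-4*, *dpy-5* and *dpy-13* are low in mock replicate 2 alone, and *dpy-17* is low in every library.

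*dpy-4*, *dpy-5* and *dpy-13* encode cuticle collagens that are not needed for the furrows to form, and they followed another pattern. They were high in 3 of the 4 libraries and low in mock replicate 2. *dpy-13* had a scaled count of 91017 in mock replicate 1, 69495 in *xrn-2(RNAi)* replicate 1, 691 in mock replicate 2 and 65499 in *xrn-2(RNAi)* replicate 2. *dpy-5* had 82330, 60800, 591 and 55709, and *dpy-4* had 71914, 63304, 621 and 68766. The level in *xrn-2(RNAi)* replicate 2 was 0.916 to 1.09 times that in *xrn-2(RNAi)* replicate 1, whereas the mock libraries differed by 116- to 139-fold. *dpy-4* overlaps *atln-2* on the opposite strand in the WBcel235 annotation, and whether the counting used the strand is not stated. As *atln-2* had scaled counts of 180 to 258, shared reads could matter for *dpy-4* mainly in mock replicate 2.

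*dpy-17* encodes a collagen needed for the secretion of the collagen SQT-3, and it differed from the other 9 members in level and direction. Its scaled count was 23.4 in mock replicate 1, 93.8 in *xrn-2(RNAi)* replicate 1, 47.9 in mock replicate 2 and 140.3 in *xrn-2(RNAi)* replicate 2. The mock mean was 35.6 ± 17.3 (SD, n = 2). The mean of the RNAi libraries was 117 ± 32.8 (SD, n = 2). It was the 1 member of 10 whose conditions did not overlap, with both *xrn-2(RNAi)* libraries above both mock libraries. Of all 16178 genes tested, 35.3% showed this, so that 1 in 10 is below the background.

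Per kilobase of exon, the levels of the furrow collagens lay close together within a library. The highest was 1.76 times the lowest in mock replicate 1 (4445 for *dpy-3* to 7805 for *dpy-7*), 1.81 times in *xrn-2(RNAi)* replicate 1 and 1.68 times in *xrn-2(RNAi)* replicate 2 (461 for *dpy-10* to 776 for *dpy-8*). In mock replicate 2 the range widened to 6.01 times, from 17.3 for *dpy-3* to 104 for *dpy-9*. The order changed between the libraries. *dpy-7* was first in mock replicate 1, *dpy-8* in both *xrn-2(RNAi)* libraries and *dpy-9* in mock replicate 2. *dpy-4*, *dpy-5* and *dpy-13* were higher than every furrow collagen in each library, with 63052 to 96292 scaled counts per kilobase outside mock replicate 2 and 619 to 699 in it, and their highest was at most 1.34 times their lowest. *dpy-17* had 21.1 to 126 scaled counts per kilobase, the lowest of the 10 in 3 of the 4 libraries. Given 1 library of each condition in a replicate, the order of neighbouring genes has no error to be judged by.

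The proportion of furrow collagen reads within a library does not depend on how libraries are scaled. This measure was chosen after the values had been seen. Of the reads of the 6 furrow collagens plus *dpy-4*, *dpy-5* and *dpy-13*, the furrow collagens made up 16.0% in mock replicate 1 (exact Clopper-Pearson 95% interval 15.9 to 16.2) and 15.005% in *xrn-2(RNAi)* replicate 1 (14.9 to 15.1). In mock replicate 2 they made up 17.7% (16.2 to 19.4), although the 9 genes together had only 0.00529% of the library's reads there against 0.668% in mock replicate 1. In *xrn-2(RNAi)* replicate 2 they made up 2.26% (2.19 to 2.33), while the 9 genes had 0.445% of the reads. Hence the summed reads of both groups were reduced by similar factors in mock replicate 2. Gene by gene the factors were less alike, at 62.8 to 358 for the furrow collagens and 116 to 139 for *dpy-4*, *dpy-5* and *dpy-13*. In *xrn-2(RNAi)* replicate 2 the furrow collagens were reduced relative to *dpy-4*, *dpy-5* and *dpy-13*. The intervals cover counting error and not the spread between libraries.

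**Figure D2:**
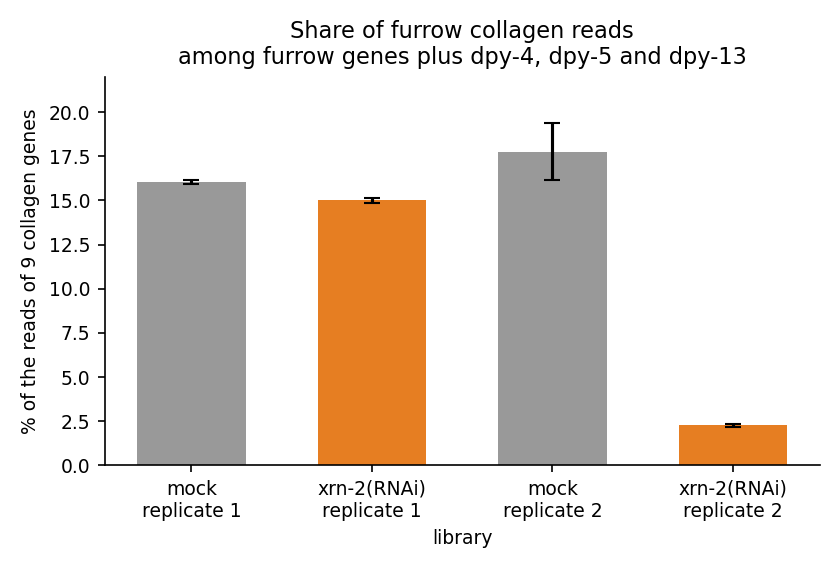
Percent of the reads of 9 collagen genes that came from the 6 furrow collagens, by library, with exact 95% binomial intervals (counting error only). The intervals lie between 14.9% and 19.4% in 3 libraries, and the share is 2.26% in *xrn-2(RNAi)* replicate 2.

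To ask how the collagens respond to *xrn-2* RNAi, fold changes were taken within a replicate on the log2 scale after adding 8 to the scaled counts, as in the methods. With 1 library on each side, no test is possible for these values. In replicate 1, the furrow collagens were lower in *xrn-2(RNAi)* by a log2 fold change of -0.82 (*dpy-7*) to -0.14 (*dpy-8*), with a median of -0.53, and *dpy-4*, *dpy-5* and *dpy-13* had -0.44 to -0.18. The median of all genes tested was 0.17. In replicate 2, the furrow collagens were higher by 2.53 (*dpy-9*) to 4.26 (*dpy-3*), with a median of 3.39, and *dpy-4*, *dpy-5* and *dpy-13* by 6.54 to 6.77, against a median of 0.37 for all genes tested. *dpy-17* had 1.70 and 1.41. TMM or median-of-ratios scaling moved the median of the 13967 genes whose mean scaled count was 50 or more from 0.16 and 0.34 in replicates 1 and 2 to between -0.04 and 0.02, and every member kept these directions. In total, 9 of the 10 members were lower in *xrn-2(RNAi)* of replicate 1 and at least 2-fold higher in that of replicate 2, as were 7.03% of all genes tested. That the fold changes differ between the replicates cannot be tested, since 4 libraries leave no residual degree of freedom for it.

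**Figure D3:**
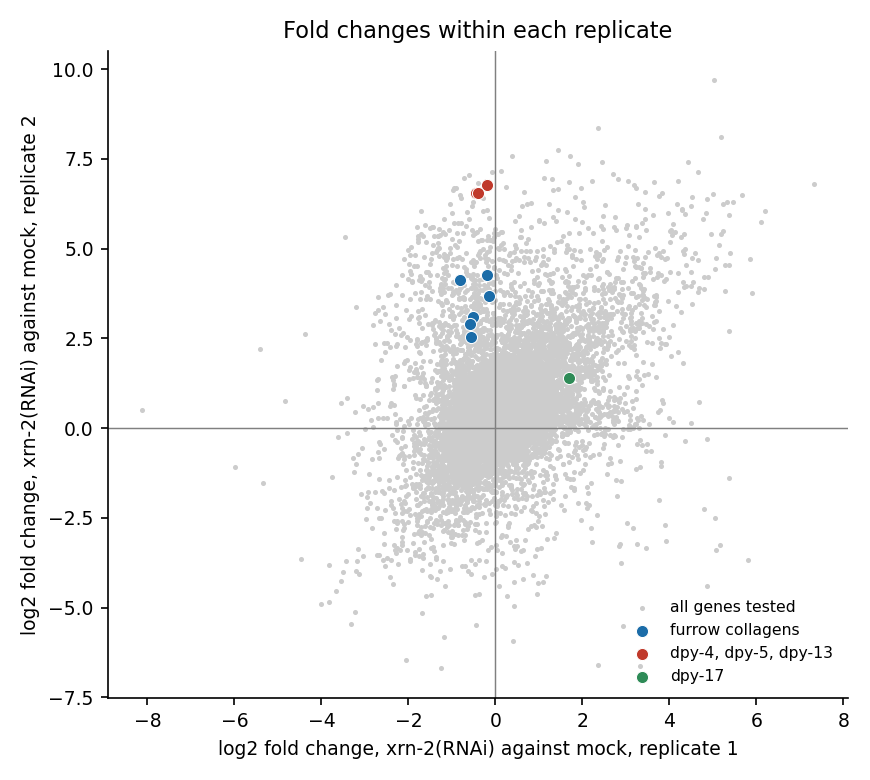
Log2 fold change in *xrn-2(RNAi)* against mock in replicate 1 (horizontal) and replicate 2 (vertical) for the 10 dumpy collagens and all 16178 genes tested (grey). The furrow collagens sit at -0.82 to -0.14 and 2.53 to 4.26. Of the 10, *dpy-17* alone is above 0 on both axes, as are 49.1% of all genes tested.

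With the 4 libraries in 1 model and the replicate as a block, the quasi-likelihood test of edgeR with Benjamini-Hochberg adjustment called 0 of the 10 members, and 0 of the 16178 genes tested (0%). An unadjusted p under 0.05 was found for 2020 genes (12.5%) and for 0 of the members, while DESeq2 called 2746 genes. The log2 fold change was 0.74 (*dpy-9*) to 1.86 (*dpy-3*) for the furrow collagens, with adjusted p of 0.700 to 0.821. For *dpy-7* it was 1.46 with a standard error of 1.75. It was 2.78 to 3.03 for *dpy-4*, *dpy-5* and *dpy-13*, with standard errors of 2.74 to 2.77 and adjusted p of 0.744 to 0.771. *dpy-17* had the smallest error, with 1.49 ± 0.52 (standard error, adjusted p = 0.402), and was the member called by DESeq2 with the same design (adjusted p = 0.0385), which called 8.07% of all genes higher. Its adjusted p ranged from 0.0385 to 1.00 over the fits.

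The direction depended on which mock library was used for 9 of the 10 members, and for the furrow collagens also on which *xrn-2(RNAi)* library was used. In fits without the block, leaving out mock replicate 2 gave the furrow collagens log2 fold changes of -1.85 to -1.16 in *xrn-2(RNAi)* (adjusted p of 0.445 to 0.613 from edgeR), and *dpy-4*, *dpy-5* and *dpy-13* -0.72 to -0.35. Leaving out mock replicate 1 gave 4.32 to 6.69 (adjusted p of 0.166 to 0.240) and 6.28 to 6.40 (adjusted p of 0.053 for each). Leaving out *xrn-2(RNAi)* replicate 1 gave the furrow collagens -3.24 to -2.43, and leaving out *xrn-2(RNAi)* replicate 2 gave 0.01 to 0.68. For *dpy-4*, *dpy-5* and *dpy-13* these 2 fits gave 0.15 to 0.65 and 0.39 to 0.64. In these fits the lone library of a label is assumed to vary like the libraries of the other. *dpy-17* was higher in *xrn-2(RNAi)* with any 1 library left out, by 0.95 to 2.08.

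For each furrow collagen, the mock libraries differed from each other by more than the labels did within either replicate. The *xrn-2(RNAi)* libraries differed from each other by more than the labels did in replicate 1, and by an amount in the range of the label differences in replicate 2. By scaled count, they were 62.8-fold (*dpy-9*) to 358-fold (*dpy-7*) lower in mock replicate 2 than in mock replicate 1. Between the *xrn-2(RNAi)* libraries they were 6.97-fold (*dpy-9*) to 8.87-fold (*dpy-7*) lower in replicate 2, so that the same genes were at the ends of both ranges. On the log2 scale with the pseudocount, the 6 differences between the *xrn-2(RNAi)* libraries spanned only -3.13 to -2.79, whereas *dpy-4*, *dpy-5*, *dpy-13* and *dpy-17* had 0.12, -0.13, -0.09 and 0.54.

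All 6 furrow collagens had at least 4-fold less in *xrn-2(RNAi)* replicate 2 than in *xrn-2(RNAi)* replicate 1, as did 0.853% of all genes tested, 6 of the 135 tested *col* genes and 0 of the other 4 dumpy collagens. Between the mock libraries, 9 of the 10 members were at least 2-fold lower in replicate 2 (17.6% of all genes) and the same number at least 32-fold lower (2.11% of all genes). The folds of 4 and 32 were chosen after the values had been seen. Both replicate 2 libraries lay below both replicate 1 libraries for 8 members, including the 6 furrow collagens, and for 23.4% of all genes.

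In the edgeR fit, the term for replicate 2 against replicate 1 gave the furrow collagens log2 differences of -5.70 (*dpy-7*) to -4.36 (*dpy-9*), with standard errors of 0.97 to 1.77. None was called by edgeR (adjusted p = 0.520 for each), and 0 of all genes were (0%), with an unadjusted p under 0.05 for 1506 genes. The unadjusted p was under 0.05 for 6 of the 6, and for 4.04% of all genes in this direction. DESeq2 called 2400 genes, among them the 6 furrow collagens (adjusted p of 0.00469 to 0.0139), with 6.84% of all genes called lower. It also called lower 3 of the 9 other body-shape collagens described below and 9 of the 135 tested *col* genes. The 3 were *bli-1*, *bli-2* and *lon-3* (adjusted p of 0.0378 to 0.0391 from DESeq2). *dpy-4*, *dpy-5* and *dpy-13* had -3.61 to -3.36 with standard errors of 2.68 to 2.71, and neither tool called them. The adult-stage genes above moved in the opposite direction between the libraries of a label, and their part in these differences was not tested.

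**Figure D4:**
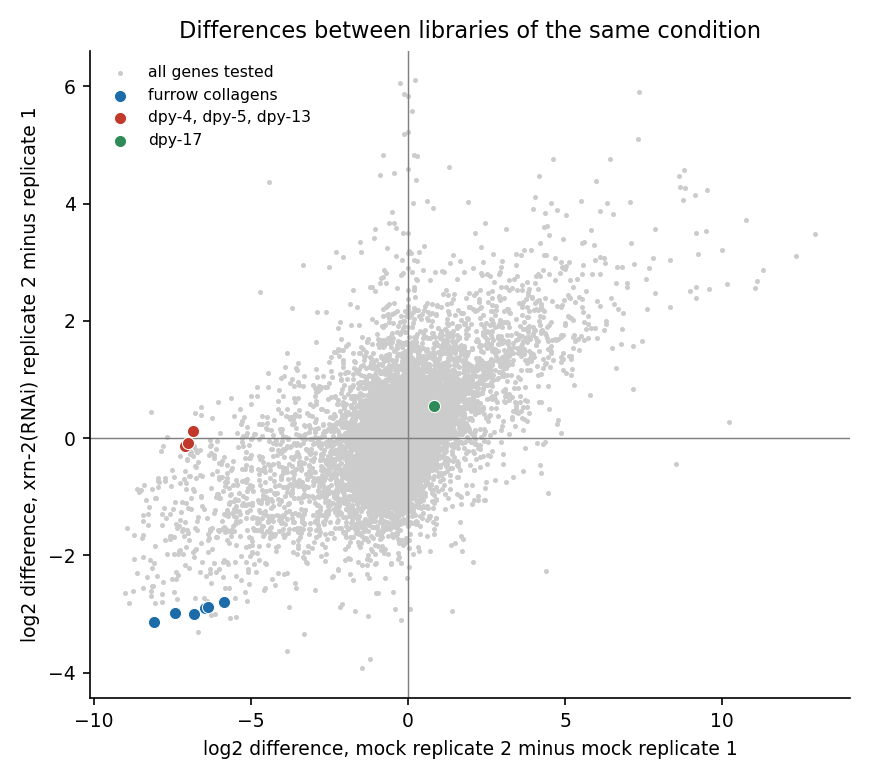
Log2 difference of replicate 2 minus replicate 1 between the mock libraries (horizontal) and between the *xrn-2(RNAi)* libraries (vertical) for the 10 dumpy collagens and all 16178 genes tested (grey). The furrow collagens lie at -8.09 to -5.87 and -3.13 to -2.79, while *dpy-4*, *dpy-5* and *dpy-13* lie near 0 on the vertical axis.

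Cell type markers were set beside these values. Of the epidermal genes, the transcription factors *lin-26* (3469 to 5001 scaled counts), *elt-1* (528 to 690) and *egl-18* (299.8 to 486) were detected in all 4 libraries. Other listed factors were less even, with *nhr-25* at 59.3 in mock replicate 2 against 163 to 331 elsewhere and *elt-3* highest there at 1861. The Hedgehog-related gene *wrt-2* and *che-14*, which encodes a Dispatched-like protein of apical secretion, were lowest in mock replicate 2, with 27.1 and 104 scaled counts against 8013 and 2778 in mock replicate 1. The epidermal list, which includes *dpy-7*, summed to 26451 scaled counts in mock and 14931 in *xrn-2(RNAi)* of replicate 1. In replicate 2 it summed to 6373 and 8354. Summed markers of other tissues spanned 146758 to 287762 for intestine, 391973 to 525652 for body wall muscle and 17749 to 36336 for pharynx. They spanned 11196 to 16603 for neurons and 55271 to 104909 for germ line. Such sums are led by the most abundant genes of a list. The part of the markers in the collagen values was not tested.

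The collagens nearest in kind, the other body-shape collagens of the *sqt*, *rol*, *bli* and *lon* classes and *dpy-14*, had 9 of 10 listed genes in the table. In replicate 1 their median log2 fold change in *xrn-2(RNAi)* was -0.97, in replicate 2 it was 6.24, and 8 of the 9 were lower in the former and higher in the latter, as were 24.4% of all genes tested. Between the *xrn-2(RNAi)* libraries, 3 of the 9 (*bli-1*, *bli-2* and *lon-3*) were at least 4-fold lower in replicate 2, the direction of the furrow collagens. *lon-3*, a collagen whose loss lengthens the body and the listed gene with the smallest edgeR log2 fold change (0.13, standard error 2.22), had scaled counts of 57311 (mock) and 9489 (RNAi) in replicate 1, and of 171 and 1835 in replicate 2. *dpy-14* was, like *dpy-17*, higher in *xrn-2(RNAi)* of both replicates, with 13.8 and 83.0 against 7.29 and 131. Its log2 fold change was 3.06 (standard error 0.66, adjusted p = 0.276 from edgeR). By edgeR 0 of the 9 were called and 1 had an unadjusted p under 0.05, against 12.5% of all genes. DESeq2 called 1 higher, against 8.07% of all genes, so that both counts are near the background.

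Genes linked to collagen biosynthesis and crosslinking formed a further list. Its 12 genes were all lower in *xrn-2(RNAi)* of replicate 1 (41% of all genes), with a median log2 fold change of -0.65, and 7 were higher in replicate 2 (73.5% of all genes), with a median of 0.31. *dpy-18*, the catalytic subunit of a prolyl 4-hydroxylase, had scaled counts of 17216 and 14361 in replicate 1, and of 1496 and 8146 in replicate 2. This was the order of libraries that the furrow collagens had, but *dpy-5* and *dpy-13* had it too. How many of all genes share it was not counted. The log2 fold change of *dpy-18* was 0.82 (standard error 0.77, adjusted p = 0.756 from edgeR). *mlt-7*, a peroxidase that crosslinks the cuticle, was instead highest in mock replicate 2, with 2565 and 930 against 3944 and 3066, and had an edgeR log2 fold change of -1.18 (standard error 0.33, adjusted p = 0.341). By edgeR 0 of the 12 were called and 2 had an unadjusted p under 0.05, against 12.5% of all genes. DESeq2 called 4 lower, against 8.9% of all genes.

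Of the 10 listed transcription factors of the molting cycle, 6 were lower in *xrn-2(RNAi)* of replicate 1 and higher in that of replicate 2, against 24.4% of all genes. *bed-3*, a zinc finger factor needed for molting, had scaled counts of 6053 and 1927 in replicate 1 and of 35.4 and 1185 in replicate 2. Its order of libraries was again that of the furrow collagens, *dpy-5* and *dpy-13*, and its log2 fold change was 1.33 (standard error 2.57). *elt-3*, a GATA factor of the epidermis, had 1248 and 634 against 1861 and 371, and a log2 fold change of -1.92 (standard error 0.52, adjusted p = 0.324). Both *xrn-2(RNAi)* libraries lay below both mock libraries for *elt-3*, which was 1 of the 10, and for 10.3% of all genes. By edgeR 0 of the 10 were called and 1 had an unadjusted p under 0.05 (12.5% of all genes), and DESeq2 called 1 lower (8.9% of all genes), counts near the background.

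Loss of furrow collagens is known to switch on osmotic, detoxification and antimicrobial genes. Of 12 such genes, 8 were higher in *xrn-2(RNAi)* of both replicates, against 49.1% of all genes, and 7 had both *xrn-2(RNAi)* libraries above both mock libraries, against 35.3% of all genes. *cnc-4*, an antimicrobial peptide gene of the epidermis, had scaled counts of 245 and 1632 in replicate 1 and of 14.6 and 3054 in replicate 2. Its log2 fold change was 4.79 (standard error 1.58, adjusted p = 0.388). *gst-4*, a glutathione S-transferase, was lower, with 1652 and 553 against 1096 and 282, and a log2 fold change of -2.04 (standard error 0.33, adjusted p = 0.254). By edgeR 0 of the 12 were called and 5 had an unadjusted p under 0.05, against 12.5% of all genes. DESeq2 called 5 higher and 1 lower, against 8.07% and 8.9% of all genes. The genes differed in mock replicate 2, where the furrow collagens were lowest. *nlp-30*, *nlp-31*, *nlp-34*, *cnc-2* and *cnc-4* were lowest in that library as well, whereas *nlp-27* (5550 scaled counts against 184 to 1030) and *nlp-28* (319 against 12.8 to 71.6) were highest there.

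**Figure D5:**
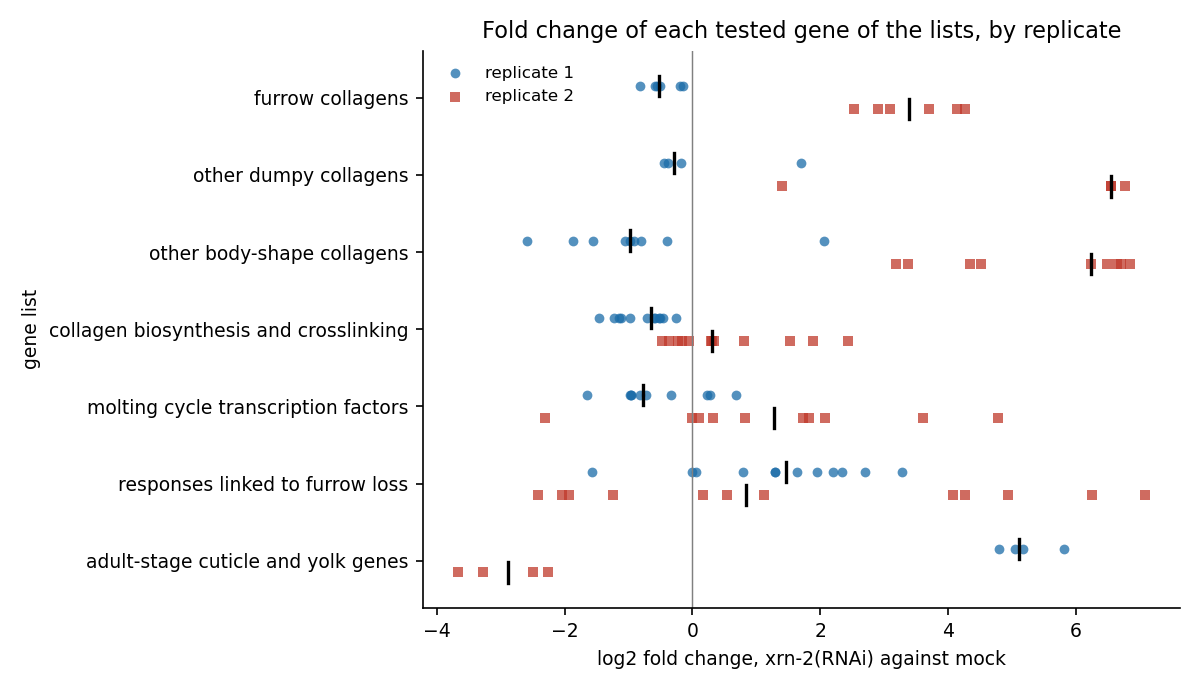
Log2 fold change in *xrn-2(RNAi)* against mock of each tested gene of 7 lists, for replicate 1 (blue circles) and replicate 2 (red squares), with black bars at the medians. The furrow collagens lie below 0 in replicate 1 and above it in replicate 2 without overlap, as the adult-stage genes do in the opposite direction.

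Genes outside the dumpy collagens were ranked by how close their pattern over the 4 libraries came to the mean of the furrow collagens. The measure was the root mean square difference of log2 values centred for each gene, over 4 libraries, and it was 0.15 to 0.45 for the furrow collagens themselves. The nearest 6 were *lpr-6* (0.24), *col-128* (0.25), *idpp-1* (0.26), *C15F1.2* (0.26), *wrt-10* (0.29) and *clec-180* (0.29). *lpr-6*, a lipocalin-related gene, had scaled counts of 5238 (mock) and 2435 (RNAi) in replicate 1, and of 23.9 and 358 in replicate 2. The Hedgehog-related *wrt-10* had 6240 and 6700 against 61.4 and 1001. In all, 20 genes were as close to this mean as the farthest furrow collagen. The furrow collagens formed the mean themselves, so that their own distances are small in part by construction.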

How the data were processed

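Poly(A) RNA of 4 libraries was analysed. The authors aligned the reads to ce10 with the qAlign function of QuasR and spliced alignment, and deposited, without normalization or pooling, raw counts per WS220 gene, each being the reads that overlap its exons. Groups and replicates came from the titles. Symbols and exon lengths were taken by gene identifier from the WBcel235 annotation (Ensembl release 115), another assembly, so that no coordinates are given, and symbols were found for 19179 of the 20380 genes. For levels, each library was scaled to 43719995 reads, the mean of the 4 totals, and 8 was added before taking log2.

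The test was the quasi-likelihood F test of edgeR 4.0.16 (R 4.3.3) after filterByExpr and TMM, at an adjusted p threshold of 0.05. The model held the replicate number as a block, since fold changes in the methods are taken within a replicate, and left 1 residual degree of freedom. A standard error is the size of the log2 fold change over the root of its F value. DESeq2 1.42.0, other scalings, no filter, a minimum log2 change of 1, a pseudocount of 1, no block and each library left out were the alternatives. No exact two-sided permutation test was run, as 2 against 2 libraries reach p = 0.333 at best. The genes named are the members, the extremes of each list by edgeR log2 fold change, and the 6 most similar genes. Others are named for comparison after their values were seen. Members and lists were chosen with earlier results of these data known. No sequences are shown, and the time course, RT-qPCR and reporter experiments were not analysed here.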

Additional observations from a re-analysis of the deposited data

How the results depend on the processing

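The directions of 9 of the 10 dumpy collagens depended on the replicate, and those of the 6 furrow collagens also on the block. Without replicate 1 or without replicate 2, the median log2 fold change of the furrow collagens ranged from -0.53 to 3.39 and that of all members from -0.41 to 3.92. Without the replicate as a block, the edgeR log2 fold change was -0.52 for *dpy-2*, -0.21 for *dpy-3*, -0.85 for *dpy-7*, -0.17 for *dpy-8*, -0.57 for *dpy-9* and -0.60 for *dpy-10*, all of the opposite sign. It fell to 0.64 for *dpy-4*, 0.27 for *dpy-5* and 0.34 for *dpy-13*, from 3.03, 2.78 and 2.81 with the block, and was 1.41 for *dpy-17*. With or without the block 0 genes were called. Same-numbered libraries deviated together (r = 0.57 across 16178 genes, which are not independent), but the labels do not say what the numbers share. With 1 library left out, the log2 fold change ranged from -2.70 to 4.995 for *dpy-2*, from -2.48 to 6.69 for *dpy-3*, from -0.35 to 6.40 for *dpy-4*, from -0.72 to 6.29 for *dpy-5*, from -3.24 to 6.53 for *dpy-7*, from -2.43 to 5.70 for *dpy-8*, from -2.65 to 4.32 for *dpy-9*, from -2.77 to 4.79 for *dpy-10* and from -0.65 to 6.28 for *dpy-13*, and 0 genes were called in any of these fits. DESeq2 also called *dpy-17* higher (1.49) and the 6 furrow collagens lower in replicate 2. It called 2746 genes for *xrn-2(RNAi)* against mock and 2400 for replicate 2 against replicate 1, where edgeR called 0. Other scalings, no filter on low counts and a minimum log2 change of 1 changed no call and no direction of a member. For the low counts of *dpy-17*, and of the furrow collagens in mock replicate 2, depth limits the fold changes.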

Other observations

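A pattern like that of *dpy-4*, *dpy-5* and *dpy-13*, low in mock replicate 2 alone, was looked for among the other genes after the values had been seen. The nearest by the same measure were *col-73* (root mean square difference 0.13), *pqn-32* (0.24), *col-38* (0.24) and the cuticlin gene *cut-2* (0.26). *col-38* had scaled counts of 105221 in mock and 66672 in *xrn-2(RNAi)* of replicate 1, and of 866 and 56510 in replicate 2. *cut-2* had 11773 and 10299 against 141 and 10088. The 3 dumpy collagens themselves lay within 0.11 of their mean, and 0 other genes came as close. As the mean was formed from these 3 genes, they lie near it by construction, and the comparison with other genes is uneven.

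The *col* family as a whole was not uniform. Of its 135 tested genes, 49 were at least 2-fold lower and 50 at least 2-fold higher in mock replicate 2 than in mock replicate 1. Their summed scaled count was 1120650 in mock and 684350 in *xrn-2(RNAi)* of replicate 1, and 1999905 and 834513 in replicate 2, highest in the library where 9 of the 10 dumpy collagens were lowest.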
